A study of Gasterosteus aculeatus with 62 samples.

Results

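The comparison described here set the diencephalon of male threespined sticklebacks (Gasterosteus aculeatus) that met a female and a predator model together against the diencephalon of males that met empty cages. The members were chosen by the labelled tissue and treatment alone, which gave 15 of the 62 libraries of the series, 8 from tradeoff males and 7 from control males. Tradeoff males had a live egg-bearing female and a model trout in view. Courtship males (8) had the caged female alone, predator males (8) had a caged model trout with odour cues alone, and control males (7) had cages with nothing in them. Odour cues are mentioned in the labels where the predator treatment is described and not where the tradeoff is, so both may not have had an identical predator stimulus. All 31 males had built a nest before the trial, and their brains were taken 1 hour after it. Each library came from 1 region of 1 male, so the spread within a group is a spread between animals. Age and source population are not in the labels used here.

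The diencephalon is the forebrain division that holds the hypothalamus and the thalamus. In fishes it is known as the seat of the neuroendocrine cells that set the stress axis and the reproductive axis, and as a station for visual and chemosensory input. Stickleback males court, defend a nest and care for the eggs without the female, and a courting male is conspicuous to fish predators. The design asked how brain gene expression in males under both demands compares with that of males under either demand or neither. In a bulk sample of a region, fewer cells of a type and less RNA per cell cannot be told apart.

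The values were read counts per gene model, given below as CPM, the number of counts for each 1000000 counts that the library had in gene models, after scaling of library sizes. CPM is not corrected for gene length, so levels are compared between males for 1 gene and not between genes. The identifiers of the deposited counts matched none of the 52177 entries of the gene name table, so genes are named by identifier, with no symbol, position, sequence or function. The labelled tissue could not be set against named marker genes for the same reason. It was set against the other region instead, with a regional index made from courtship and predator males alone. The index takes the 500 genes most enriched in the telencephalon and the 500 most enriched in the diencephalon, and subtracts the mean log2-CPM of the second set from that of the first. It ran from -1.20 to -0.91 in the 15 diencephalon libraries and from 0.63 to 2.41 in the telencephalon libraries of the same males, with no overlap. The lowest telencephalon value, in a control male, lay well below the telencephalon median of 2.09. In predator males, outside this comparison, the telencephalon index ran from -2.03 to 2.57. Its lowest value lay below every diencephalon library of the series, of which the lowest had -1.28. Both of these low telencephalon libraries were kept in the main fit of the difference between regions given below.

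Library measures did not pass a test between the groups. Counts in gene models averaged 34.9 ± 5.40 M in tradeoff males and 34.3 ± 6.90 M in control males (SD; M, units of 1000000), and ranged over both groups from 26.6 to 47.7 M. Shares of reads in no gene model, of reads not uniquely aligned, of ambiguous reads, of counts in the 100 most abundant models and of counts in Y chromosome models, and the number of models detected, had exact two-sided permutation p from 0.249 to 0.750, and the counts themselves 0.863. The regional index averaged -1.05 ± 0.09 in tradeoff males and -1.13 ± 0.07 in control males. The difference of 0.08 had an exact permutation p of 0.0920, or 0.736 adjusted by the Benjamini-Hochberg method over the 8 measures. Of these measures it had the smallest p, and a higher index is nearer to the telencephalon libraries. The groups overlapped on it, and its medians were close, at -1.08 in tradeoff males and -1.09 in control males.

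The libraries of both treatments overlapped on the leading axes of expression. The first principal component of log2-CPM held 15.3% of the variance and ran from -33.9 to 9.20 in tradeoff males and from -22.6 to 58.8 in control males. Of the tradeoff males 1 of 8 lay above 0 on it, and of the control males 5 of 7. Control male 12 stood apart from the rest. Its mean distance to the other 14 libraries, as root mean square difference of log2-CPM over genes of at least 10 CPM, was 0.415, while the other libraries had mean distances of 0.320 to 0.361.

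Pairs of tradeoff males lay 0.319 apart on average (28 pairs), pairs of control males 0.338 (21 pairs), and a tradeoff male lay 0.354 from a control male (56 pairs). Pairs between the groups were thus farther apart than pairs within them by 0.0264, with an exact one-sided permutation p of 0.0274 over the 6435 ways to split the 15 libraries. Without control male 12 the excess was 0.0240 and the exact permutation p 0.0496. This measure was chosen after values had been seen, and its p adjusted over it and the 8 library measures was 0.246, which misses the threshold. The regional index given above differed in mean between the groups, short of its threshold, with near-equal medians and overlapping values. Its part in these distances was not tested.

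**Figure D1:**
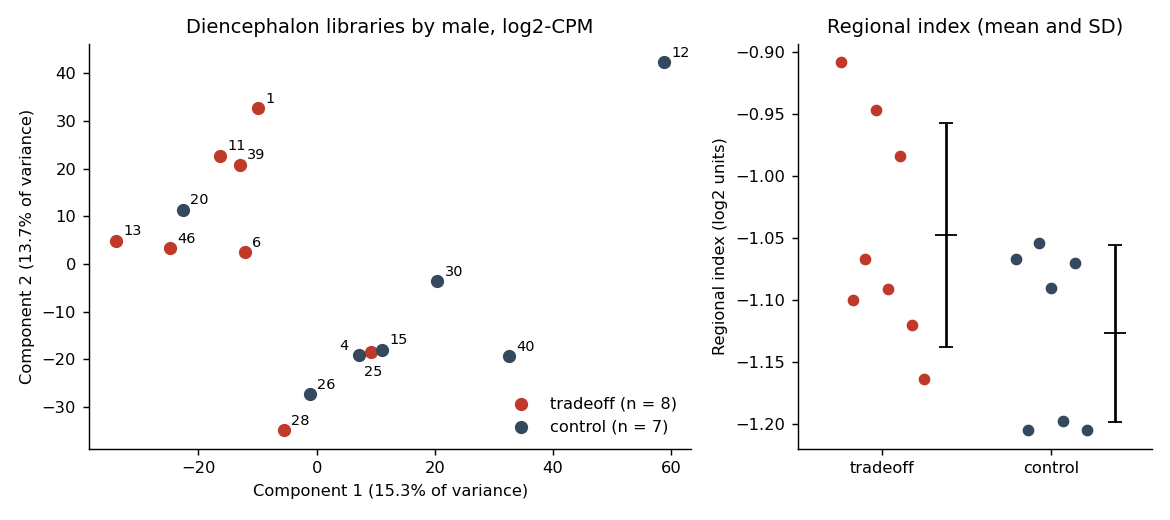
Left, the 15 diencephalon libraries on the first 2 principal components of log2-CPM, each point a male with its number. Right, the regional index of each library in log2 units, with the group mean and SD beside the points. Tradeoff males lie mostly on the left and control male 12 far to the right at 58.8, and the groups overlap on both plots.

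No gene passed the test between tradeoff and control males. Of 18942 genes tested with edgeR's quasi-likelihood test, 0 (0%) had a Benjamini-Hochberg adjusted p under 0.05, and the smallest adjusted p was 0.9995. At an unadjusted p under 0.05 there were 710 genes (3.75%), of which 319 (1.68%) were estimated higher and 391 (2.06%) lower in tradeoff males. With no difference in any gene, a share of about 0.05 would meet that limit, so 3.75% over all genes is no excess. The share was 6.23% for genes with a mean under 1 CPM and 4.44% at 1 to 10 CPM. At 10 to 100 CPM it was 3.27%, and at 100 CPM or more 1.91%. Only the class under 1 CPM was thus above 0.05. DESeq2 also called 0 genes, with 730 at an unadjusted p under 0.05 and a smallest adjusted p of 0.064, and limma's voom with sample quality weights called 0, with 701. Fitting the 15 libraries alone gave 0 calls and 653 genes at an unadjusted p under 0.05. The median estimated log2 fold change over all genes was -0.0007.

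**Figure D2:**
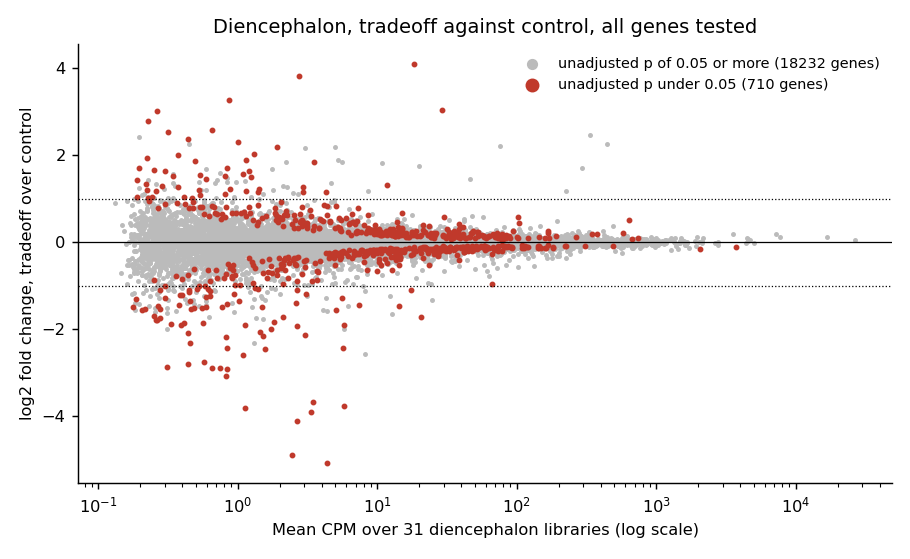
Log2 fold change of tradeoff over control (vertical axis) against mean CPM over the 31 diencephalon libraries (horizontal log axis), 1 point a gene, with dotted lines at 2-fold. The 710 genes at an unadjusted p under 0.05 lie on both sides of 0, and estimates beyond 2-fold are mostly at low CPM.

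The data bounded the difference tightly for most well-counted genes. Over all genes tested, the 95% interval of the fold change lay inside 2-fold in either direction for 88.5%, inside 1.5-fold for 77.0% and inside 1.25-fold for 58.3%. For the 9612 genes with a mean of 10 to 100 CPM these shares were 98.9%, 96.0% and 83.2%. For the 2097 genes of 100 CPM or more they were 99.3%, 97.7% and 92.8%. Each interval stands for its own gene and is not adjusted for the number of genes.

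Precision was lower for genes with fewer reads. The log2 fold change had a median standard error of 0.06 at 100 CPM or more, 0.07 at 10 to 100 CPM, 0.18 at 1 to 10 CPM and 0.44 under 1 CPM. Among the 5274 genes of 1 to 10 CPM the interval stayed inside 2-fold for 86.8% and inside 1.25-fold for 20.8%. Among the 1959 genes under 1 CPM it stayed inside 2-fold for 30.6% and inside 1.25-fold for 0%. For the other 1360 genes of that class the interval reached past 2-fold at this depth and number of males.

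**Figure D3:**
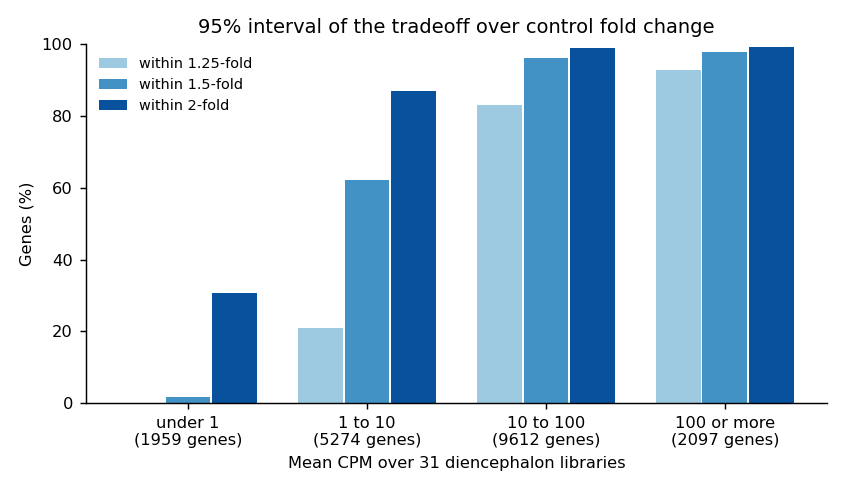
Share of genes (percent, vertical axis) whose 95% interval of the tradeoff over control fold change lies inside 1.25-fold, 1.5-fold and 2-fold, for 4 classes of mean CPM. The share inside 2-fold is 30.6% under 1 CPM and 99.3% at 100 CPM or more.

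Few well-counted genes had a large estimate, and in those a single male often held much of the total. Of 11709 genes with at least 10 CPM, 17 were estimated more than 2-fold apart, 11 higher and 6 lower in tradeoff males, with log2 fold changes of -1.73 to 4.10. Of the 17, 6 had an unadjusted p under 0.05. The male with the highest level held 19.0% to 51.2% of the CPM summed over the 15 libraries in these genes, with a median of 24.8%. Over all genes of at least 10 CPM that median was 7.76%. Tradeoff male 13 was the highest in 5 of the 11 genes estimated higher, tradeoff male 1 in 3 and tradeoff male 46 in 1. In 2 of the 11 the highest was a control male, male 20.

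The gene with the smallest p among those estimated higher was ENSGACG00000015511. Its lowest, median and highest levels were 16.1, 18.3 and 21.3 CPM in tradeoff males, against 15.5, 15.9 and 16.8 CPM in control males. Of the 8 tradeoff males 7 were above the highest control, and the control males lay within a narrow band. The log2 fold change was 0.21 (SE 0.05), with an unadjusted p of 0.000434 and an edgeR adjusted p of 0.9995. Courtship males averaged 17.1 ± 0.78 CPM and predator males 18.7 ± 1.13 CPM, set against 16.0 ± 0.49 CPM in control males (SD). All 3 comparisons with control use the same control males. In the telencephalon the log2 fold change of tradeoff over control was 0.40 (SE 0.09, edgeR adjusted p 0.314), and the difference between the regions was -0.19 (SE 0.13).

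ENSGACG00000016127 was the next by p among genes estimated higher. It ran from 1.5 to 6.95 CPM with a median of 4.04 in tradeoff males, against 1.33 to 3.50 CPM with a median of 1.46 in control males. Here 5 of 8 tradeoff males were above the highest control, male 20, while the second highest control male had 1.96 CPM. The log2 fold change was 1.15 (SE 0.31, unadjusted p 0.000693, edgeR adjusted p 0.9995). Courtship males had a median of 2.91 CPM and predator males of 2.30 CPM, between the medians of tradeoff and control males. The telencephalon estimate ran the other way at -0.37 (SE 0.33), and the difference between the regions was 1.53 (SE 0.48, edgeR adjusted p 0.9999).

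Among genes estimated lower, ENSGACG00000012817 had the smallest p of the whole comparison, 0.000104 unadjusted. Its lowest, median and highest levels were 7.59, 9.31 and 11.3 CPM in tradeoff males, against 10.5, 12.5 and 14.1 CPM in control males. Of the 8 tradeoff males 7 were below the lowest control, and the eighth, male 39, was above the lowest 2 controls. The log2 fold change was -0.40 (SE 0.09, edgeR adjusted p 0.9995), and with each of the 15 libraries left out in turn it stayed between -0.44 and -0.36. Against the same control males the estimates were -0.29 (SE 0.09) in courtship males and -0.31 (SE 0.09) in predator males.

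ENSGACG00000004882, the other gene estimated lower, had few reads, and the size of its estimate leaned on 1 control male. It had 0.062 to 0.495 CPM with a median of 0.261 in tradeoff males, against 0.211 to 9.27 CPM with a median of 0.789 in control males. Control male 12 held the 9.27 CPM, and the next control male had 1.93 CPM. Of the 7 control males 4 were above the highest tradeoff male. The log2 fold change of -2.89 (SE 0.65, edgeR adjusted p 0.9995) became -1.61 without that male. DESeq2 gave it an adjusted p of 0.064, the smallest of that tool's comparison. Courtship males were estimated at -2.85 (SE 0.65) and predator males at -1.84 (SE 0.62) against the same control males. The telencephalon estimate of tradeoff over control was -2.31 (SE 0.64). None of these had an edgeR adjusted p under 0.05.

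In 2 of 18942 genes (0.0106%) the 8 tradeoff and 7 control libraries did not overlap. A random split of 15 libraries into such groups separates a gene fully with a probability of about 0.000311, which is above that share. Full separation in 2 genes is thus no excess. The Y chromosome model maker-chrY-augustus-gene-96.49 had 3.52 to 4.48 CPM with a median of 3.76 in tradeoff males, against 2.39 to 3.37 CPM with a median of 3.0 in control males. All tradeoff males were above all control males, with a log2 fold change of 0.36 (SE 0.10, unadjusted p 0.00125, edgeR adjusted p 0.9995). Courtship males averaged 3.19 ± 0.39 CPM and predator males 2.69 ± 0.32 CPM (SD), both below the tradeoff mean of 3.8 ± 0.31 CPM. The estimate in the telencephalon was -0.04 (SE 0.12), and the difference between the regions 0.41 (SE 0.17, edgeR adjusted p 0.9999). Reads of a Y model that also align to an X copy are not counted, so the level of such a model is uncertain.

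ENSGACG00000018033 was the gene without overlap in the other direction. It had 0.124 to 0.455 CPM in tradeoff males, which is 4 to 20 reads, against 0.483 to 0.655 CPM in control males, which is 14 to 31 reads. Though no male crossed over, the fitted log2 fold change of -0.76 had an SE of 0.37, an unadjusted p of 0.0498 and an edgeR adjusted p of 0.9995. Predator males, with 0.103 to 0.949 CPM, covered both ranges, and courtship males, with 0.127 to 0.610 CPM, reached into both.

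**Figure D4:**
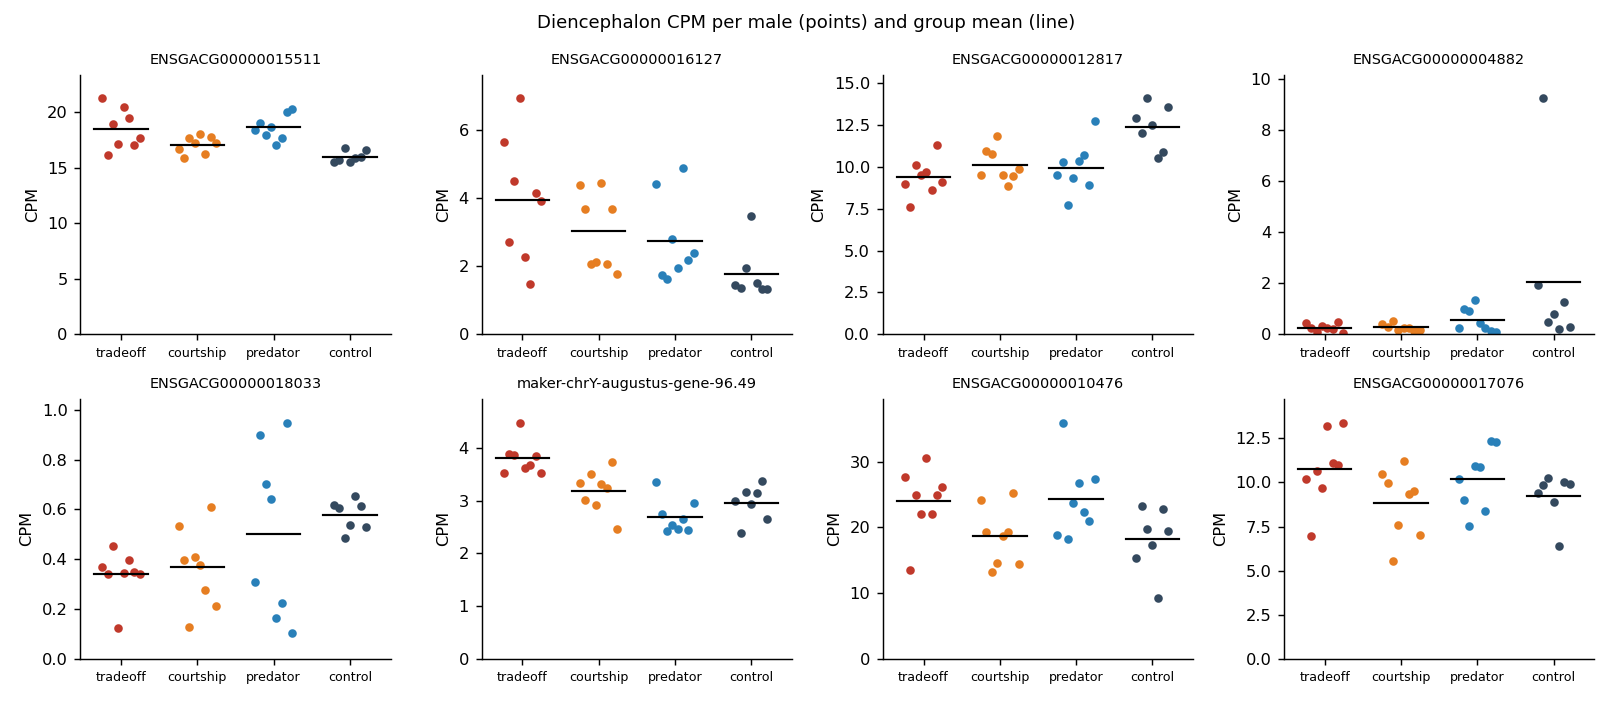
Diencephalon CPM of each male (points, vertical axis from 0) in the tradeoff, courtship, predator and control groups for 8 genes, with the group mean as a line. The Y chromosome model has tradeoff males at 3.52 CPM and above and control males at 3.37 CPM and below, while control male 12 lies alone at 9.27 CPM for ENSGACG00000004882.

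A pair of genes was followed from the telencephalon, where earlier results of these data gave them the clearest response to the predator cue. Their telencephalon estimates, and the gap between the regions, are therefore not independent of the choice and may be overstated. ENSGACG00000010476 had 13.4, 24.9 and 30.5 CPM as lowest, median and highest diencephalon levels in tradeoff males, against 9.21, 19.4 and 23.2 CPM in control males. The groups overlapped, 5 of 8 tradeoff males were above the highest control, and the log2 fold change was 0.40 (SE 0.18, edgeR adjusted p 0.9995). Predator males averaged 24.3 ± 5.76 CPM and courtship males 18.6 ± 4.46 CPM (SD), so the groups with a model trout had the higher means. The telencephalon estimate was 1.02 (SE 0.25, edgeR adjusted p 0.491), and the difference between the regions, -0.61 (SE 0.35), had an edgeR adjusted p of 0.9999.

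ENSGACG00000017076 had 6.99, 10.8 and 13.4 CPM in tradeoff males, against 6.42, 9.84 and 10.2 CPM in control males. Again 5 of 8 tradeoff males were above the highest control, with a log2 fold change of 0.22 (SE 0.14, edgeR adjusted p 0.9995). Its telencephalon estimate was 0.85 (SE 0.26), which did not pass the adjusted threshold, with a difference between the regions of -0.62 (SE 0.36, edgeR adjusted p 0.9999).

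Gene models were also counted in groups that their identifiers define. Of 472 Y chromosome models tested, 8 were higher and 9 lower at an unadjusted p under 0.05, with a median log2 fold change of 0.0064. Of 312 other models of the MAKER annotation pipeline, 8 were higher and 4 lower, with a median of 0.016. Of 18158 Ensembl models, 303 were higher and 378 lower, with a median of -0.0013. In shares, 1.69% of the Y chromosome models were higher and 1.91% lower, 2.56% of the other MAKER models were higher and 1.28% lower, and 1.67% of the Ensembl models were higher and 2.08% lower, beside 1.68% higher and 2.06% lower of all genes tested.

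Genes that mark the regions leaned one way. Of the 500 telencephalon-enriched genes, 391 were estimated higher and 109 lower in tradeoff males. All genes tested divided into 9410 estimated higher and 9532 lower. At an unadjusted p under 0.05, 29 (5.8%) were higher and 1 (0.2%) lower, beside 1.68% and 2.06% of all genes tested, and none passed the adjusted threshold. Their median log2 fold change was 0.07, against -0.0007 for all genes. Of the 500 diencephalon-enriched genes, 197 were estimated higher and 303 lower, with a median of -0.02. At an unadjusted p under 0.05, 3 (0.6%) were higher and 6 (1.2%) lower, both shares below those of all genes tested. Both sets were chosen on other males, and they make up the regional index given above. Their lean is thus another view of the index difference, which had an adjusted exact permutation p of 0.736. With the index as a covariate the median of the telencephalon-enriched genes was 0.01. A fall of that median is largely built into such a fit, since these genes make up the index. The cause of the lean was not tested. The whole comparison with this covariate had 0 calls and 585 genes at an unadjusted p under 0.05.

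The 4 treatments form a layout with and without the female and with and without the predator cue, so the tradeoff can be set against the sum of its parts. This takes the predator cue as the same in tradeoff and predator males. The departure from additivity is the log2 level in tradeoff males minus that in courtship males minus that in predator males plus that in control males. Of 18942 genes tested, 0 (0%) passed the edgeR test, and the smallest adjusted p was 0.399. At an unadjusted p under 0.05 there were 572 (3.02%), 329 above the sum and 243 below it, again a share under 0.05. DESeq2 called 1 gene.

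That gene was ENSGACG00000008172, which also had the smallest p by edgeR, with a departure of 4.08 (SE 0.82, edgeR adjusted p 0.399, DESeq2 adjusted p 0.00923). It ran from 0.151 to 4.63 CPM with a median of 0.751 in tradeoff males, while courtship males had a median of 0.332, predator males of 0.141 and control males of 0.995 CPM. Tradeoff and control males were both spread widely and overlapped, and their own difference was 0.57 (SE 0.55). Tradeoff male 13 held the 4.63 CPM, and the next tradeoff male had 1.6 CPM. Without that male the departure was 3.35, with an adjusted p of 0.557 by edgeR and of 0.0611 by DESeq2, so the DESeq2 call was lost. The medians of both groups with a single cue were below those of tradeoff and control males.

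ENSGACG00000011581 had a departure of 0.51 (SE 0.11, edgeR adjusted p 0.985). It averaged 8.31 ± 0.72 CPM in tradeoff males, 7.03 ± 0.79 in courtship males, 7.22 ± 0.89 in predator males and 8.70 ± 0.65 in control males (SD). ENSGACG00000019072 had the opposite layout, with a departure of -0.96 (SE 0.24, edgeR adjusted p 0.9999). Its means were 6.42 ± 2.04 CPM in tradeoff males, 9.23 ± 1.92 in courtship males, 8.55 ± 1.84 in predator males and 6.31 ± 1.02 in control males. In these genes tradeoff and control males had like means, with differences of -0.07 (SE 0.08) and 0.03 (SE 0.17), and the groups with 1 cue lay apart from them. ENSGACG00000017975 departed by -0.21 (SE 0.06, edgeR adjusted p 0.9999), with 33.7 ± 2.24 CPM in tradeoff males, 37.9 ± 0.86 in courtship males, 35.3 ± 1.82 in predator males and 34.2 ± 1.07 in control males. Each of these genes was named for the size of its p, so its values are a description.

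**Figure D5:**
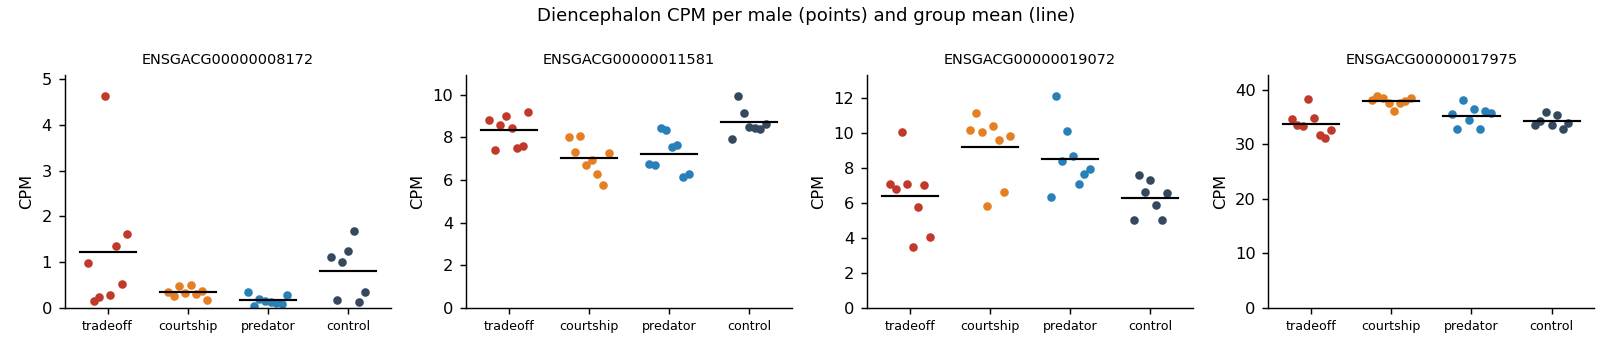
Diencephalon CPM of each male (points, vertical axis from 0) in the 4 groups for the 4 genes with the smallest p for departure from additivity, 2 in each direction, with the group mean as a line. For ENSGACG00000011581 and ENSGACG00000019072 the tradeoff and control means lie close together, and 1 tradeoff male reaches 4.63 CPM for ENSGACG00000008172.

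Whether the tradeoff effect differed between the regions was tested gene by gene, as the diencephalon difference minus the telencephalon difference. The main fit had no term for the male, so it took both regions of a male as separate animals. The SEs of this difference and the choice of the named genes come from that fit. Of 19321 genes, 0 (0%) passed the edgeR test, with a smallest adjusted p of 0.26. An unadjusted p under 0.05 was met by 239 (1.24%), also a share under 0.05. Taking each male as a replicate block left 0 that passed, with a smallest edgeR adjusted p of 0.424 and 449 at an unadjusted p under 0.05. DESeq2 called 2 genes, described here with the 4 named by the smallest p.

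The smallest p belonged to ENSGACG00000005709. In the diencephalon it had 0 to 0.091 CPM in tradeoff males, against 0 to 12.9 CPM in control males. In the telencephalon it had 0.033 to 9.95 CPM in tradeoff males, against 0 to 0.259 CPM in control males. Control male 12 held the 12.9 CPM and the next control male had 0.164 CPM, and tradeoff male 11 held the 9.95 CPM and the next tradeoff male had 0.5 CPM. The fitted log2 difference of -9.05 became -4.18 without the diencephalon library of control male 12 and -5.84 without the telencephalon library of tradeoff male 11. It was -3.73 in the edgeR fit with males as a replicate block (adjusted p 0.99996) and -1.03 by DESeq2. The gene had too few reads to enter the fit of the diencephalon alone. ENSGACG00000007736 also had a negative difference between the regions, of -3.05 (SE 0.92, edgeR adjusted p 0.9999). Its log2 fold change of tradeoff over control was -1.55 (SE 0.65) in the diencephalon and 1.51 (SE 0.64) in the telencephalon. Control male 12 was again the highest control in the diencephalon, at 1.82 CPM. In the telencephalon tradeoff male 11 was the highest at 3.62 CPM, and the next tradeoff male had 1.84 CPM. The difference between the regions was -2.40 without the diencephalon library of control male 12 and -2.44 with the replicate block.

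In the other direction, ENSGACG00000003539 had diencephalon levels of 1.48 to 2.50 CPM in tradeoff males, against 0.138 to 2.78 CPM in control males. In the telencephalon it had 0 to 0.0205 CPM in tradeoff males, against 0 to 2.74 CPM in control males, where male 30 held the 2.74 CPM. Its edgeR adjusted p was 0.361, that of DESeq2 0.0301, and 0.99996 in the edgeR fit that had the replicate block for males. Without the telencephalon library of control male 30 the fitted log2 difference was 2.56 instead of 6.06, and neither tool called the gene. The diencephalon difference alone was 0.18 (SE 0.47). ENSGACG00000019145, the gene with the next smallest p, differed by 0.48 (SE 0.13, edgeR adjusted p 0.9999), and by 0.49 with the replicate block (edgeR adjusted p 0.424). It averaged 11.9 ± 0.82 CPM in tradeoff males and 10.4 ± 1.39 CPM in control males in the diencephalon, and 7.74 ± 1.11 CPM in tradeoff males and 9.45 ± 1.23 CPM in control males in the telencephalon (SD). The remaining DESeq2 call, ENSGACG00000017882, had 3.29 to 8.78 CPM in tradeoff males and 4.15 to 21.4 CPM in control males in the diencephalon, and 0 to 0.098 CPM in tradeoff males and 0 CPM in control males in the telencephalon. Its DESeq2 adjusted p was 3.42e-18 and its edgeR adjusted p 0.9999. No fold is given for a group without reads. Without the diencephalon library of control male 12, which held the 21.4 CPM, DESeq2 called 0 genes for the difference between regions.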

How the data were processed

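The authors deposited 1 table per library of raw counts, whole numbers without normalization, for 22295 gene models. Per the submitters' processing notes they used STAR and HTSeq. Tool versions, annotation, build and strand setting were not given in those notes or in the labels, so reads of overlapping antisense genes cannot be assumed separated. Of the tallied reads of the 15 libraries, 42.8% to 47.3% were in gene models and 4.66% to 14.4% were not uniquely aligned and in no count. The 5 tally lines per file entered no library size. No 2 libraries were duplicates.

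The 31 diencephalon libraries in 4 groups were fitted with edgeR 4.0.16 in R 4.3.3 (filterByExpr with minimum count 10 and minimum total 15, TMM, robust quasi-likelihood fit), with Benjamini-Hochberg adjustment over all genes tested and a threshold of 0.05. The difference between regions used all 62 libraries, grouped by region and treatment, with no term for the male in the main fit. The log2-CPM of the regional index had a prior count of 2, with genes above a mean log2-CPM of 3, and were chosen without the telencephalon library of male 42 (predator), which stands apart. DESeq2 1.42.0 and limma 3.58.1 were alternatives. The fit was tested on simulated counts, drawn with the fitted spread between males and with no outlying library added. That test cannot show how the fit handles such a library. Library measures had exact permutation tests, whose smallest two-sided p is 0.000311. Intervals cover the fitted spread between males.

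Genes were named by a rule: the 2 smallest p in each direction for each of 3 contrasts, a pair followed from the telencephalon, and genes without overlap if 5 or fewer. DESeq2 calls were named after their values were seen. The comparison, its lists and tests were chosen with earlier results of these data known. Gene lists by symbol could not be used, since 0 of 22295 identifiers matched (assembly fGasAcu3.hap1.1).

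Libraries of both regions with the same male number come from the same animal, per the labels. Their deviations from group means, over genes of at least 10 CPM in log2(CPM + 0.5), had correlations of -0.07 to 0.56 in the 15 males (mean 0.33). Over the 210 pairs of unlike males the correlations ran from -0.51 to 0.41 (mean -0.02), so the ranges overlapped.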

Additional observations from a re-analysis of the deposited data

Results flagged for a closer look

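In 12 cases among 64 sets of values, 1 male lay far from the others of its group by Dixon's criterion. The sets were the named genes and the library measures, each in a group of 7 or 8 males. Chance meets the criterion in about 1 in 20 sets of normally distributed values. CPM values, some from few reads, need not be so distributed, so the 12 cases cannot be set against that rate. Control male 12 was the outlying diencephalon library for ENSGACG00000004882 with 9.27 CPM, for ENSGACG00000005709 with 12.9 CPM and for ENSGACG00000007736 with 1.82 CPM. Tradeoff male 13 was so in the diencephalon for ENSGACG00000008172 with 4.63 CPM, for the Y chromosome model maker-chrY-augustus-gene-96.49 with 4.48 CPM and, on the low side, for ENSGACG00000018033 with 0.124 CPM. Control male 20 was high for ENSGACG00000016127 with 3.50 CPM, and control male 26 low for ENSGACG00000017076 with 6.42 CPM. Courtship male 32 was low for ENSGACG00000017975 with 36.1 CPM. In the telencephalon, tradeoff male 11 stood out for ENSGACG00000005709 with 9.95 CPM and for ENSGACG00000003539 with 0.0205 CPM, which is 1 read where the other tradeoff males had 0, so that this flag follows from a single read. In the same region control male 30 was high for ENSGACG00000003539 with 2.74 CPM. Many of these genes were named for a small p, and a single high male raises an estimate, so the flags are not independent of the naming.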

How the results depend on the processing

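The count of 0 genes between tradeoff and control males held under size factors by relative log expression, no filter, DESeq2, voom, the 15 libraries alone, all 62 libraries, the regional index as a covariate, and each library left out in turn. Leaving out a library gave 559 genes (without control male 12) to 872 (without control male 26) at an unadjusted p under 0.05, and the fit of all 62 libraries 471. For the difference between regions, at an unadjusted p under 0.05, the male as a replicate block gave 449 genes, no filter 417, and leaving out the telencephalon library of predator male 42 gave 365, against 239. DESeq2 called 2 genes there and 1 for the departure from additivity, where edgeR called 0. In fits added after the data were seen, DESeq2 called 0 without the diencephalon library of control male 12 and 4 without the telencephalon library of control male 30 for the difference between regions, and 0 without tradeoff male 13 for additivity, while edgeR called 0 in each. The cause of the gap between the tools was not tested. Leaving out a library turned the sign of small differences, tradeoff minus control, in library measures: counts in models ran from -0.764 to 2.81 M, reads in no gene model from -0.263 to 0.664 percentage points, reads not uniquely aligned from -1.29 to 0.105, and Y chromosome counts from -0.0031 to 0.0222. No paired analysis was possible between tradeoff and control males in the diencephalon because they share no male number. Depth and 7 to 8 males a group limit genes under 1 CPM most.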

Other observations

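Males of 1 group differed from each other about as much in either group. Over genes of at least 10 CPM, the median SD of log2-CPM was 0.129 in tradeoff males and 0.130 in control males, and 48.4% of the genes had the larger SD in tradeoff males. Without control male 12 the median of control males was 0.112, and 61.8% of the genes had the larger SD in tradeoff males, so the reading of which group was more variable turned on that male.

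For ENSGACG00000008172 the highest tradeoff male was the same in both regions, and so was the highest control male. In the fit of both regions, tradeoff male 13 was the highest tradeoff male in the diencephalon with 4.56 CPM and in the telencephalon with 4.3 CPM, and control male 26 was the highest control male in both, with 1.63 and 1.29 CPM. The medians of the diencephalon were 0.734 CPM in tradeoff males and 0.974 CPM in control males, and those of the telencephalon 0.651 CPM in tradeoff males and 0.789 CPM in control males. The agreement of both regions of a male was not tested for this gene.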
